A study of Rattus norvegicus with 9 samples.

Results

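The immediate early response genes described here are 10 genes, Fos, Fosb, Junb, Egr1, Egr2, Atf3, Nr4a1, Ier2, Btg2 and Dusp1, taken by gene name from a table of 35360 genes. All 10 were found and all 10 passed the filter on low counts, which left 15460 genes for testing. They were measured by RNA sequencing of tissue from the middle of femoral fractures in rats, in a study of a bone adhesive meant for osteoporotic fractures. The Mg-ALN gel group received the gel carrying a material made of magnesium and the bisphosphonate alendronate (ALN), the ALN gel group received the gel with alendronate, and the Gel group received the gel alone. They are called Mg-ALN, ALN and Gel below. Each group had 3 libraries, and every group, the Gel group included, carried the gel. Strain, sex, age, dose and the time after fracture are not given in the sources used here, nor is it stated whether each library came from 1 animal.

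Immediate early genes are switched on within minutes of a stimulus such as injury, growth factors, mechanical load or inflammation, without new protein synthesis. Kinase cascades act on factors already bound at their promoters, chiefly serum response factor on the CArG box and CREB on the cAMP response element. Many of their products are short-lived transcription factors, and others are brakes that end the response. In bone, AP-1 factors of the Fos and Jun families are known for roles in osteoblast and osteoclast formation. Such transcripts are also known to appear quickly when tissue is cut and handled.

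The promoters are shown because they carry the elements through which such genes are known to be induced. The RefSeq table of build GRCr8 held promoters for 8 members, and Fos and Atf3 had no entry. The 250 bases upstream of the start site were searched on both strands. The full cAMP response element, TGACGTCA, was present in Ier2, Btg2 and Dusp1, 3 of 8, against 1.59% of all 33469 promoters. Its half-site TGACG, which lies inside the full element, was found in all of the 8 but Fosb, against 18.2% of all promoters. The CArG box was found in Egr1 and Egr2, against 1.497% of all promoters. The EGR site, searched as GCGTGGGCG and GCGGGGGCG, was found in Nr4a1, against 2.85%. The AP-1 site TGACTCA was found in 0 of the 8, against 4.05%. These are matches of letters, not measured binding. In the stretches below, capitals mark the full cAMP response element or the CArG box.
Ier2 (chr19:40399283-40399338, plus strand): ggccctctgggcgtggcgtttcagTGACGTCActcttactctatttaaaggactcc
Btg2 (chr13:48087860-48087915, minus strand): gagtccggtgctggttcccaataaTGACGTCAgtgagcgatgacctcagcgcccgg
Dusp1 (chr10:17184705-17184760, plus strand): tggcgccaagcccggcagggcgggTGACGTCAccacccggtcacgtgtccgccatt
Egr1 (chr18:26736949-26737028, plus strand): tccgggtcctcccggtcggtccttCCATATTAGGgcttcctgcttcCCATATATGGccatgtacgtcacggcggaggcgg
Egr2 (chr20:21054491-21054548, minus strand): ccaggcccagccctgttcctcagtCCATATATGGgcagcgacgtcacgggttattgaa
The cAMP response element began 66 bases upstream of the start site in Ier2, 201 in Btg2 and 124 in Dusp1. Egr1 held CArG boxes beginning 105 and 83 bases upstream. Egr2 held the box CCATATATGG at the same place as the nearer box of Egr1, 83 bases upstream, and both genes had a half-site beginning 66 bases upstream.

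Levels between the genes were compared on the authors' deposited FPKM, which is per kilobase of gene. Averaged over the 9 libraries, Junb was highest at 227 FPKM, followed by Dusp1 at 143, Fos at 97.0, Ier2 at 65.2, Egr1 at 40.5, Btg2 at 33.8, Nr4a1 at 21.4, Atf3 at 9.36, Fosb at 5.31 and Egr2 at 2.46 FPKM. Fos thus stood far above Fosb, its relative in the same family. The deposited table labels Ier2 a pseudogene, whereas the RefSeq table lists it as protein-coding. These sources also differ in its strand, minus in the deposited table and plus for the promoter of build GRCr8 shown above. The cause of that difference was not tested. None of the members, 0 of 10, overlapped another gene of the table on either strand. In the coordinates of the deposited table, whose build is not given, Ier2 lies on chromosome 19 at 25774143 to 25775659 (minus strand), Junb on the same chromosome at 26092974 to 26094756 (minus strand), Btg2 on chromosome 13 at 50913180 to 50916982 (minus strand) and Egr1 on chromosome 18 at 27657628 to 27661429 (plus strand).

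The libraries held 13388689 to 18763270 counts, and the members together took 0.0318% to 0.217% of them. In the following, values are CPM, the gene's count relative to the library's total after scaling between libraries by TMM (a trimmed mean of ratios). The share of counts from the mitochondrial genome was 11.2%, 10.6% and 31.6% in Mg-ALN 1 to 3, 39.5%, 15.6% and 7.61% in ALN 1 to 3, and 17.5%, 5.40% and 4.16% in Gel 1 to 3. ALN library 1 and Mg-ALN library 3 stood apart by that share, and Gel library 3 by its muscle transcripts. In bulk tissue, fewer cells of a type and less RNA per cell cannot be told apart.

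All 10 members had a positive log2 fold change in Mg-ALN against ALN, a sign shared by 46.4% of all genes, with a median log2 fold change of 1.07 over the members, against −0.04 over all genes tested. By edgeR's quasi-likelihood test with Benjamini-Hochberg adjustment, 0 of the 10 passed, against 0% of all genes. At an unadjusted p under 0.05 there were 5 of 10, all higher in Mg-ALN, against 3.76% of all genes in that direction. DESeq2 called 1, Ier2, against 0.375% of all genes in that direction, and limma-voom with quality weights called 0, against 0.0129% of all genes. The groups did not overlap in 4 of the 10 (Junb, Egr1, Ier2 and Btg2), with every Mg-ALN library above every ALN library, against 6.76% of all genes.

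Ier2, a nuclear regulator induced early by growth factors, had nearly equal values within both of these groups. It had 140, 142 and 140 CPM in the Mg-ALN libraries 1 to 3, against 65.0, 68.8 and 63.4 CPM in the ALN libraries. All 3 Mg-ALN values lay within 2 CPM of each other and above every other library, and the ALN values lay close together as well. The Gel libraries, with 57.9, 93.1 and 107 CPM, were spread more widely and reached below ALN. In Mg-ALN against ALN the log2 fold change was 1.10 (SE 0.23, edgeR adjusted p = 0.454, unadjusted p = 0.00114), the 38th smallest p of the 15460 genes. The DESeq2 log2 fold change was 1.13 (SE 0.27, adjusted p = 0.00607). With DESeq2 and 1 library left out, the adjusted p of Ier2 lay between 5.71e-09 without Gel library 1 and 0.0871 without ALN library 1, the only omission that ended the call.

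Btg2, an antiproliferative gene that slows cell-cycle entry and promotes mRNA decay, had the same order of groups. Its Mg-ALN libraries had 95.9, 123 and 101 CPM, against 64.9, 70.9 and 57.7 CPM in ALN and 74.9, 93.1 and 111 CPM in Gel. The ALN libraries were the 3 lowest of the 9, so that ALN overlapped neither of the other groups. The log2 fold change was 0.73 (SE 0.21, edgeR adjusted p = 0.496, DESeq2 adjusted p = 0.0690) in Mg-ALN against ALN.

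Junb belongs to the Jun family, whose proteins pair with Fos proteins in AP-1. It had 657, 450 and 534 CPM in Mg-ALN, against 153, 318 and 205 CPM in ALN and 158, 746 and 470 CPM in Gel. Mg-ALN lay above ALN without overlap, while Gel held both the highest library and the next-to-lowest one. Its log2 fold change was 1.28 (SE 0.51, edgeR adjusted p = 0.510) in Mg-ALN against ALN.

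Egr1, a zinc-finger factor induced by growth factors and mechanical load, had 143, 206 and 145 CPM in Mg-ALN, against 53.1, 61.3 and 126 CPM in ALN and 123, 95.1 and 209 CPM in Gel. Mg-ALN and ALN did not overlap, ALN library 3 came nearest to the Mg-ALN range, and Gel overlapped both. The log2 fold change was 1.03 (SE 0.40, edgeR adjusted p = 0.509) in Mg-ALN against ALN. Egr2, a zinc-finger factor of the same family, was the least abundant member, with 12.7, 6.43 and 7.24 CPM in Mg-ALN, 3.88, 5.27 and 7.47 CPM in ALN and 4.70, 13.03 and 11.8 CPM in Gel. All 3 of its groups overlapped.

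Fos, the founding AP-1 partner, had 69.7, 415 and 159 CPM in Mg-ALN, against 19.2, 32.9 and 211 CPM in ALN and 101, 102 and 302 CPM in Gel. ALN libraries 1 and 2 were the lowest of the 9, and ALN library 3 was the third highest. The log2 fold change of 1.29 (SE 0.96, edgeR adjusted p = 0.695) in Mg-ALN against ALN was therefore little larger than its error. Fosb, its close relative, split in the same way, with 20.6, 40.4 and 10.3 CPM in Mg-ALN, 0.233, 1.69 and 35.6 CPM in ALN and 28.5, 8.24 and 36.3 CPM in Gel. ALN library 1 held 3 Fosb counts and ALN library 3 held 586.

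Among the other members, Nr4a1, an orphan nuclear receptor, had 227, 56.9 and 26.2 CPM in Mg-ALN, 6.05, 16.2 and 40.5 CPM in ALN and 28.8, 63.2 and 51.1 CPM in Gel. Its log2 fold change in Mg-ALN against ALN, 2.30 (SE 0.87, edgeR adjusted p = 0.502), was the largest of the 10, and the groups overlapped. Without Mg-ALN library 1 it was 0.99, and the log2 fold change in Mg-ALN against Gel was −0.20, against 1.12 with that library. Atf3, a stress-induced factor of the ATF family, had 53.2, 42.5 and 21.9 CPM in Mg-ALN, 4.03, 15.2 and 38.4 CPM in ALN and 11.4, 40.8 and 20.9 CPM in Gel. Dusp1, the phosphatase that switches off MAP kinases, had 417, 470 and 260 CPM in Mg-ALN, 45.9, 78.2 and 299 CPM in ALN and 117, 462 and 373 CPM in Gel. In both genes ALN library 3 lay inside the range of Mg-ALN.

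**Figure D1:**
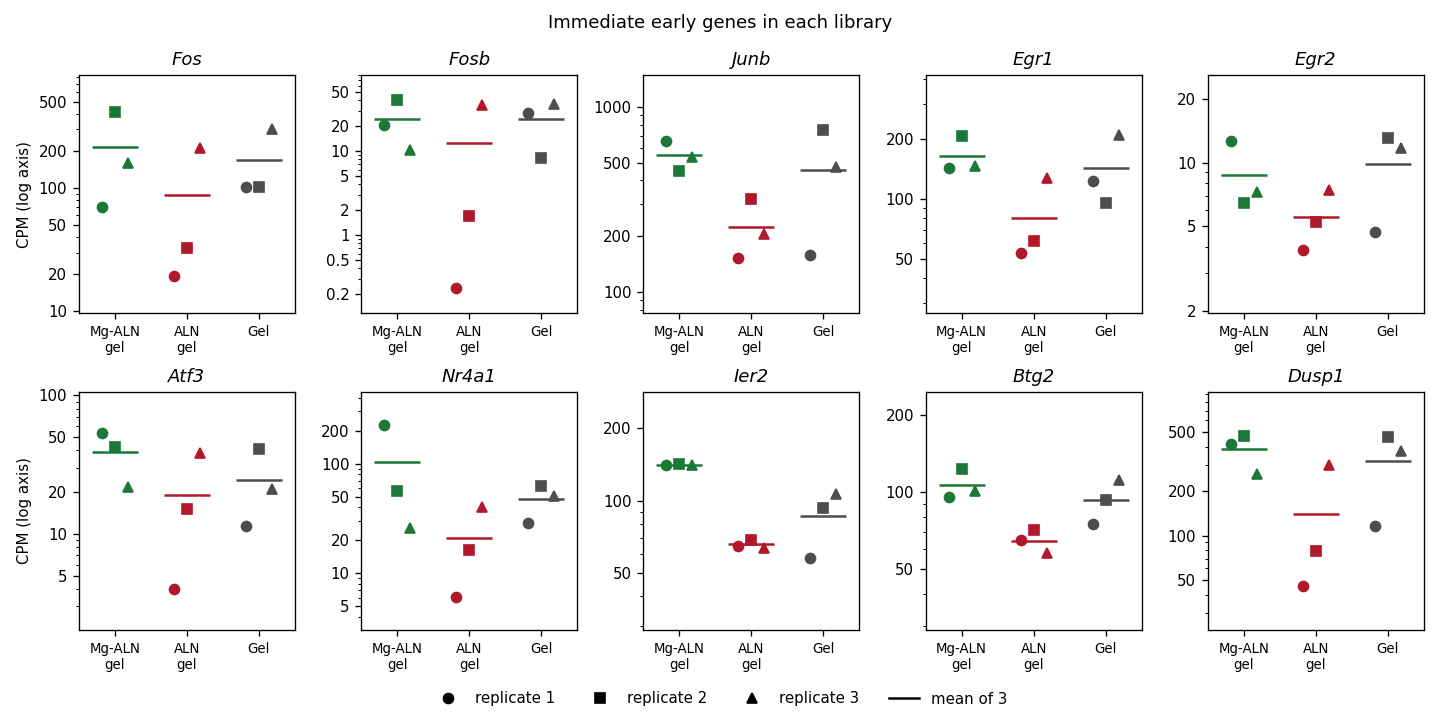
CPM of each immediate early gene on a log axis, with 1 point per library (the shape gives the replicate number) and a line at the mean of the 3 libraries of Mg-ALN, ALN and Gel. The Ier2 points of Mg-ALN coincide at 140 to 142 CPM, whereas those of Fosb in ALN run between 0.233 and 35.6 CPM.

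The size of the contrast between Mg-ALN and ALN depended on single libraries. The median log2 fold change over the members was 0.81 without ALN library 1 and 1.79 without ALN library 3. By edgeR, the 5 members at an unadjusted p under 0.05 became 2 without ALN library 1, against 2.51% of all genes in that direction, and 8 without ALN library 3, against 5.29%. They became 3 without ALN library 2 (against 4.09%) or without Mg-ALN library 1 (against 2.81%). DESeq2 called 0 members as higher without ALN library 1, against 0.113% of all genes. Without ALN library 3 it called 6 (Fos, Fosb, Egr1, Nr4a1, Ier2 and Dusp1), against 1.67%. Without Gel library 1 it called 3 (Junb, Ier2 and Btg2), against 1.23%, and without Mg-ALN library 3 it called 2 (Nr4a1 and Ier2), against 0.306%.

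The next comparison, ALN against Gel, sets the gel with alendronate beside the gel alone. All 10 members had a negative log2 fold change in ALN against Gel, a sign shared by 50.2% of all genes, with a median log2 fold change of −0.88 over the members, against −0.00 over all genes tested. None, 0 of 10, passed by edgeR, against 0% of all genes, and the count at an unadjusted p under 0.05 was 1, Btg2, against 2.42% of all genes in that direction. DESeq2 and limma-voom called 0 members, against 0.860% and 1.70% of all genes. Only Btg2 was without overlap between the groups, lower in ALN, against 5.03% of all genes in that direction. Its log2 fold change was −0.53 (SE 0.21, edgeR adjusted p = 0.577). The largest differences were those of Nr4a1, −1.19 (SE 0.84), Dusp1, −1.17 (SE 0.71), and Junb, −1.02 (SE 0.51), and the smallest that of Atf3, −0.34 (SE 0.73), which changed sign without ALN library 1 (0.14) or Gel library 2 (0.17).

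Libraries of the same number deviated together between ALN and Gel, so the members were also read within numbers. The labels do not state that numbers pair libraries, so this pairing was inferred from these same data. The same-numbered correlations were 0.341, 0.419 and 0.226, and unlike numbers of ALN and Gel gave −0.283 to −0.0125. Deviations were taken from each group's mean of 3 libraries. Positive same-numbered values therefore push the unlike-numbered ones below 0, which adds no separate evidence of pairing. However, an unlike-numbered pair of other groups, Mg-ALN library 2 with ALN library 3, reached 0.320. ALN lay below Gel in all 3 numbers for 8 of the 10, against 17.3% of all genes tested. Fos had log2 ratios of −2.39, −1.63 and −0.52 for numbers 1 to 3, and Egr1 of −1.21, −0.63 and −0.73. The exceptions were Atf3, with 0.87 for number 3, and Ier2, with 0.17 for number 1. With the replicate number as a block in a fit of these 2 groups alone, 0 members passed (lowest edgeR adjusted p = 0.200, for Egr1), and 5 of 10 had an unadjusted p under 0.05 (Fos, Junb, Egr1, Nr4a1 and Dusp1, all lower), against 5.79% of all genes in that direction and against 1 member without the block. Over the members the median log2 fold change was −0.56 without ALN library 1, −0.57 without Gel library 3 and −1.39 without ALN library 3. In the edgeR fit with no block, the 1 member at an unadjusted p under 0.05 became 0 without ALN library 1 (against 1.05% of all genes, lower in ALN) or Gel library 3 (against 1.89%). It became 2 without ALN library 2 (against 3.82%), 4 without Gel library 1 (against 4.94%) and 5 without ALN library 3 (against 5.18%).

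In Mg-ALN against Gel the members' differences were smaller. The median log2 fold change was 0.26 over the 10, against −0.03 over all genes tested, with 8 positive values, against 47.7% of all genes, and 2 negative ones, those of Fosb (−0.04, SE 1.28) and Egr2 (−0.17, SE 0.47). Ier2 was the only member without overlap, higher in every Mg-ALN library than in every Gel library, against 9.76% of all genes, with a log2 fold change of 0.71 (SE 0.23, edgeR adjusted p = 0.530). By edgeR 0 of the 10 passed, against 0% of all genes, and by DESeq2 and limma-voom also 0, against 0.330% and 0%. In the edgeR fit 1 had an unadjusted p under 0.05, against 5.43% of all genes in the higher direction. The comparisons share libraries, so their values are not independent of each other. With so wide a spread, a difference of the size of 1 on the log2 scale in Fos (0.35, SE 0.94) or Nr4a1 (1.12, SE 0.84) was not detectable.

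**Figure D2:**
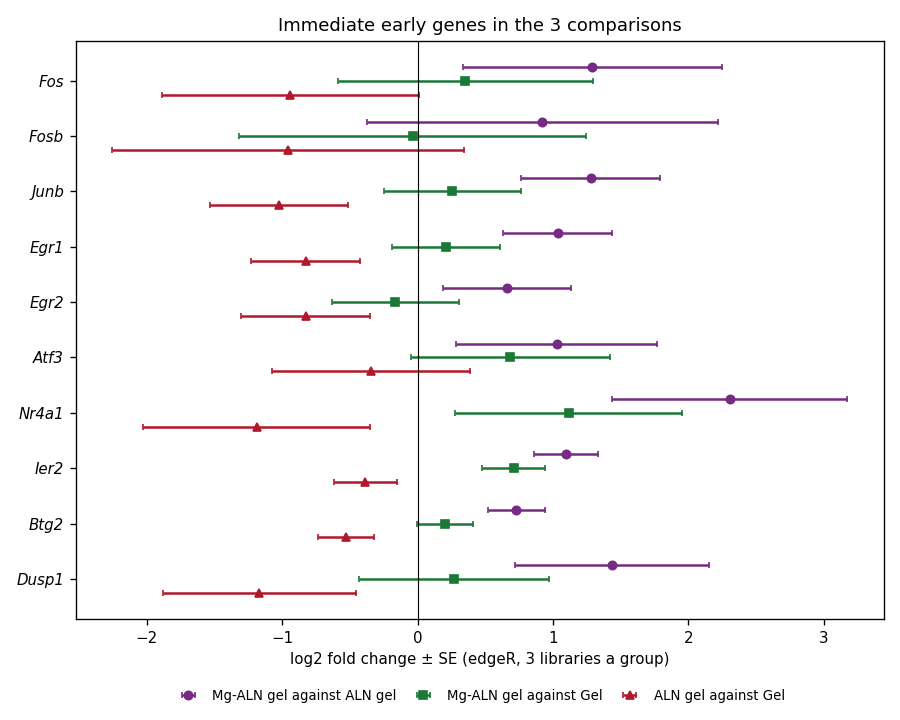
Log2 fold changes with their standard errors from the edgeR fit for the 10 immediate early genes in Mg-ALN against ALN, Mg-ALN against Gel and ALN against Gel. All 10 values lie above 0 in the first of these and below 0 in the last, and the bars of Ier2 and Btg2 are the shortest.

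A joint test of any difference among the 3 groups gave 0 members by edgeR, against 0% of all genes. DESeq2 called 1, Ier2 (adjusted p = 0.0127), against 1.60% of all genes, and limma-voom called 0, against 0.181%. The joint DESeq2 call of Ier2 was lost when any 1 of the 6 Mg-ALN or ALN libraries was left out, with adjusted p between 0.0533 and 0.109. At an unadjusted edgeR p under 0.05 were 2 members, Ier2 and Btg2, against 9.29% of all genes. The count was 1 without ALN library 1 (against 6.76% of all genes) and 6 without ALN library 3 (against 10.1%). It was 3 without Mg-ALN library 3 (against 8.75%), Gel library 1 (against 1775 of 16084 genes), Gel library 2 (against 6.74%) or Gel library 3 (against 5.99%). In exact permutation tests over the 280 ways to form 3 groups of 3, which cannot give a p under 0.00357, the unadjusted p was 0.0143 for Ier2 and 0.0179 for Btg2. For the other 8 it lay between 0.10 for Egr1 and 0.382 for Egr2. Seen by group means, ALN was lowest for all 10 members. Of the other groups, Mg-ALN had the higher mean in all but Fosb and Egr2. They overlapped in all members but Ier2, 1 of 10 without overlap, against 9.76% of all genes.

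The members differed widely in how much they varied between libraries of 1 group. On the log2 scale the standard deviation within groups was 2.24 for Fosb and 1.39 for Fos, above those of 95.4% and 85.0% of the genes tested. It was 0.27 for Ier2 and 0.22 for Btg2, above those of 19.01% and 10.7% of the genes, and the median over all genes was 0.52. Egr1 (0.54) and Egr2 (0.62) were near that median, and Junb (0.75), Dusp1 (1.05), Atf3 (1.15) and Nr4a1 (1.25) above it. The variation of Fos was largest in ALN, where the highest library exceeded the lowest 10.96-fold, against 2.99-fold in Gel.

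Across the 9 libraries, the 45 pairs of members had a median Pearson correlation of log2 CPM of 0.69, between 0.33 and 0.92. After removal of the group means the median was 0.48 and 39 of the 45 remained positive. These libraries share scaling and tissue composition, so the values are descriptions. Fos was closest to Egr1 (0.92), Fosb to Egr1 (0.90), Atf3 to Dusp1 (0.91), Nr4a1 to Atf3 (0.88), Egr2 to Dusp1 (0.84), Junb to Egr2 (0.83), and Ier2 to Btg2 (0.87). The least alike pairs joined Junb with Fosb (0.33) and with Fos (0.36). ALN library 3 showed that division in single values. It held the third-highest Fos and Fosb of the 9 libraries but the lowest Btg2, the next-to-lowest Ier2 and the third-lowest Junb. ALN library 1 was the lowest of the 9 for 8 members and among the lowest 3 for all 10, and Mg-ALN library 2 was the highest for 5.

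**Figure D3:**
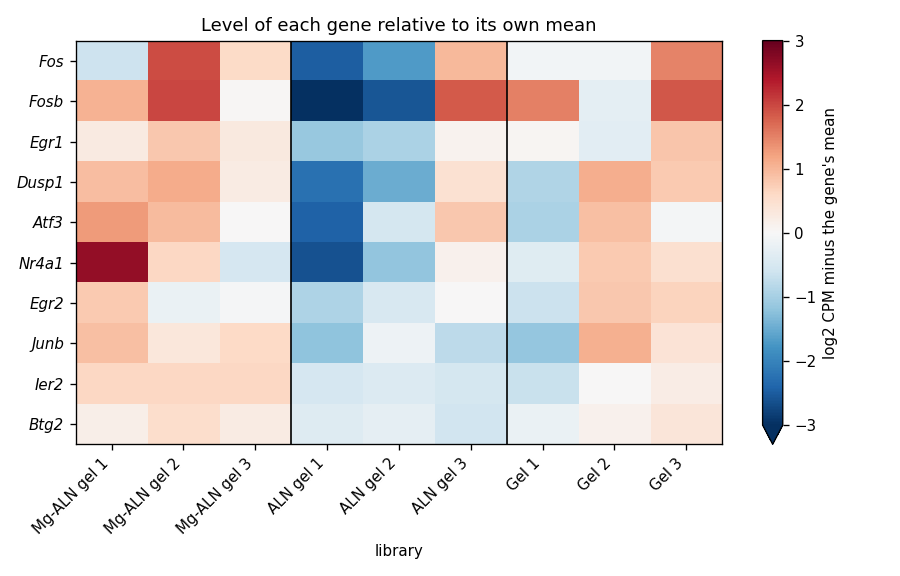
Log2 CPM of each immediate early gene minus its mean over the 9 libraries, with libraries of Mg-ALN, ALN and Gel in columns and a colour scale that ends at −3 and 3. ALN library 1 is low for all 10 genes, while ALN library 3 is high for Fos and Fosb and low for Junb, Ier2 and Btg2.

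Of 13828 other protein-coding genes tested, those most like the members' mean profile over the 9 libraries were Bace2 (r = 0.98), Grb10 (0.98), Cygb (0.98), Lamb1 (0.97), Col18a1 (0.97) and Nid1 (0.97). That profile was the mean of log2 CPM centred on each gene without scaling, so members that varied more, such as Fosb, weighed more. Bace2 encodes a membrane protease, Grb10 an adaptor of growth factor receptors, Cygb a globin of fibroblast-like cells, and Lamb1, Col18a1 and Nid1 basement membrane proteins. Lamb1 had 288, 393 and 286 CPM in Mg-ALN, 45.8, 126 and 227 CPM in ALN and 133, 249 and 297 CPM in Gel, so its lowest library was again ALN library 1.

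Other genes of the response were read from lists, of which none had a member past the edgeR threshold (0 in each comparison). Beside the list counts given below, 46.4% of all genes tested were higher in Mg-ALN than in ALN. By sign, 50.2% of all genes tested were lower in ALN than in Gel. Of 8 other AP-1 genes, 6 were higher in Mg-ALN than in ALN with a median log2 fold change of 0.30. Of these AP-1 genes 0 had an unadjusted edgeR p under 0.05, against 3.76% of all genes in the higher direction. Jun itself had 182, 278 and 202 CPM in Mg-ALN, 154, 170 and 204 CPM in ALN and 139, 239 and 209 CPM in Gel, which overlap throughout. Of 16 other early transcription factors, 12 were higher in Mg-ALN than in ALN (median 0.49), 6 of them without overlap, against 6.76% of all genes. The clearest was Cebpd, a factor of the acute-phase and inflammatory response. It had 250, 153 and 143 CPM in Mg-ALN, 39.6, 59.6 and 60.0 CPM in ALN and 97.4, 280 and 124 CPM in Gel. Its log2 fold change was 1.78 (SE 0.43, edgeR adjusted p = 0.496, DESeq2 adjusted p = 0.0152) in Mg-ALN against ALN and −1.65 (SE 0.42, edgeR adjusted p = 0.528, DESeq2 adjusted p = 0.0330) in ALN against Gel. Nr4a2, a relative of Nr4a1, had 73.1, 24.2 and 18.9 CPM in Mg-ALN, against 5.51, 9.16 and 16.1 CPM in ALN, with no overlap (log2 fold change 1.91, SE 0.58, edgeR adjusted p = 0.496).

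Of 25 feedback regulators, 21 were higher in Mg-ALN than in ALN (median log2 fold change 0.66) and 21 were lower in ALN than in Gel (median −0.61). Rgs2, a brake on G-protein signalling, had 87.6, 75.9 and 72.1 CPM in Mg-ALN against 24.98, 36.5 and 25.5 CPM in ALN. Zfp36, which destabilizes early and cytokine mRNAs, had a log2 fold change of −2.08 (SE 0.71, edgeR adjusted p = 0.543) in ALN against Gel. The groups overlapped, with 44.8, 129 and 108 CPM in ALN and 86.1, 798 and 310 CPM in Gel. Dusp4, a relative of Dusp1, ran the other way, with 60.0, 99.3 and 70.2 CPM in ALN against 33.6, 18.8 and 13.1 CPM in Gel, and was called by limma-voom only (adjusted p = 0.0488). Of 14 secreted and membrane products, 12 were higher in Mg-ALN than in ALN (median 0.50). In ALN against Gel, 7 of them were higher and 7 lower (median −0.08). Il6, an inflammatory cytokine, had 62.1, 46.8 and 27.4 CPM in Mg-ALN against 0, 5.15 and 0.851 CPM in ALN. Its Gel libraries had 1.49, 22.8 and 15.8 CPM. Cxcl1, a neutrophil attractant, had 71.2, 77.4 and 67.8 CPM in Mg-ALN against 1.71, 12.5 and 6.02 CPM in ALN. In Gel it had 5.27, 99.9 and 51.0 CPM and overlapped both. DESeq2 called Il6 and Cxcl1 in Mg-ALN against ALN, with adjusted p-values of 0.0218 for Il6 and 0.0141 for Cxcl1.

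Upstream of these genes, of 21 kinases and promoter-bound factors, 12 were higher and 9 lower in Mg-ALN than in ALN, with a median log2 fold change of 0.01. Mapk3, the kinase ERK1, had 145, 139 and 102 CPM in Mg-ALN against 59.3, 93.5 and 103 CPM in ALN. Srf, serum response factor, had 78.4, 94.9 and 65.5 CPM in Mg-ALN against 47.9, 69.3 and 66.8 CPM in ALN. Both overlapped. Elk4 and Map2k4 were lower in Mg-ALN than in ALN. Elk4 had 42.9, 80.1 and 69.3 CPM in Mg-ALN against 93.0, 90.8 and 104 CPM in ALN. Its log2 fold change was −0.58 (SE 0.25, edgeR adjusted p = 0.524). That of Map2k4, with overlap, was −0.58 (SE 0.32, edgeR adjusted p = 0.613). Without overlap, 3 of the 21 were higher and 1, Elk4, was lower. Of 11 heat shock and handling genes, 7 were higher in Mg-ALN than in ALN (median 0.27), and their summed level was 1482 to 1841 CPM in Mg-ALN, 1386 to 1474 CPM in ALN and 1366 to 2618 CPM in Gel.

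Other measures of the libraries are given beside the members' values. The mitochondrial share was highest in ALN library 1, where the members were lowest, and it was higher in ALN than in Gel within each number. Mg-ALN library 3, with a mitochondrial share of 31.6%, had the lowest share of counts in the members of its group, 0.118%. The members' share is of all counts, mitochondrial ones included. In ALN library 2 and Gel library 1 it was lower still, 0.0671% and 0.0707%, at smaller mitochondrial shares of 15.6% and 17.5%. Fitted beside the mitochondrial share as a covariate, the members had a median log2 fold change of 1.28 in Mg-ALN against ALN, −0.38 in ALN against Gel and 0.83 in Mg-ALN against Gel, and 0 members passed. Summed fibroblast markers were 27383, 24400 and 17738 CPM in Mg-ALN, 2883, 9225 and 24195 CPM in ALN and 10486, 21294 and 22066 CPM in Gel, with 8 of 9 markers higher in Mg-ALN than in ALN. Endothelial markers summed to 878 to 1658 CPM in Mg-ALN, 457 to 1040 CPM in ALN and 691 to 1028 CPM in Gel, with 9 of 9 higher in Mg-ALN than in ALN. Osteoclast markers ran the other way, with 3071 to 9912 CPM in Mg-ALN, 16054 to 25140 CPM in ALN and 1818 to 15393 CPM in Gel, and 8 of 8 tested were lower in Mg-ALN than in ALN. No fibroblast or endothelial marker was at 0 in any library, and at most 1 of the 9 osteoclast markers was. The part of these measures in the members' differences was not tested.

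**Figure D4:**
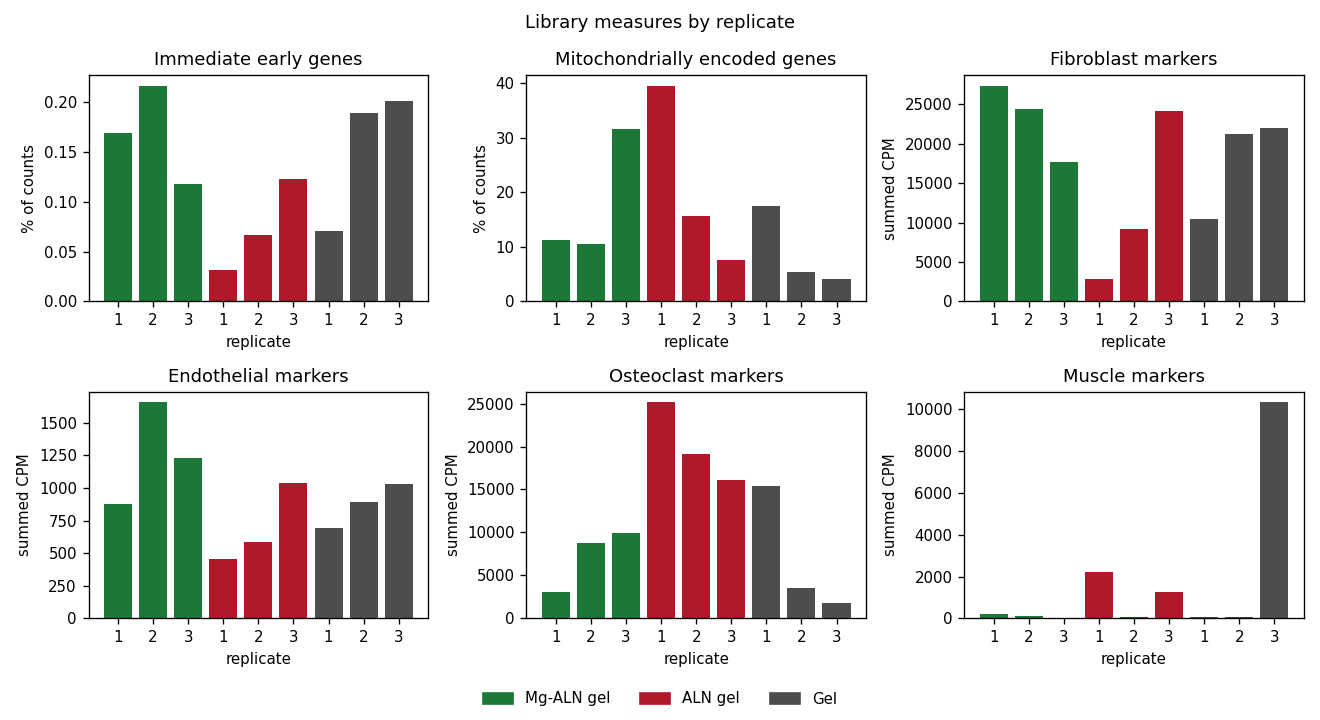
Bars for each library of Mg-ALN, ALN and Gel, giving the share of counts in the 10 immediate early genes and in mitochondrially encoded genes, and the summed CPM of fibroblast, endothelial, osteoclast and muscle markers. ALN library 1 has the lowest share of immediate early genes (0.0318%), the highest mitochondrial share (39.5%) and the lowest fibroblast sum (2883 CPM).

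Markers of further cell types were read in the same way. Summed muscle markers ran between 8.70 and 207 CPM in Mg-ALN, 53.7 and 2231 CPM in ALN and 64.8 and 10339 CPM in Gel, and 3 of the 8 markers were at 0 in Mg-ALN library 3. Neutrophil markers summed to 695 to 8472 CPM in Mg-ALN, 90.5 to 557 CPM in ALN and 141 to 1257 CPM in Gel, with 6 of 8 tested higher in Mg-ALN than in ALN and 0 to 2 of the 9 at 0 in a library. Mg-ALN library 1, with the highest neutrophil sum, also had the highest Nr4a1 and Atf3. Macrophage markers lay at 1038 to 2554 CPM in Mg-ALN, 1632 to 2375 CPM in ALN and 1237 to 2210 CPM in Gel. Erythroid markers lay at 364 to 1043 CPM in Mg-ALN, 716 to 1224 CPM in ALN and 645 to 878 CPM in Gel, with 7 of 7 lower in Mg-ALN than in ALN. Most of each sum was Tfrc, the transferrin receptor, with 361 of 364 CPM in Mg-ALN library 2 and 704 of 711 CPM in Gel library 2. The sums therefore say little of the other erythroid markers. Alas2 had 1.49 CPM in Mg-ALN library 2 and 95.3 CPM in Mg-ALN library 3. Osteoblast and osteocyte markers, which define the labelled bone tissue, were present as a sum in every library, with 3478 to 7812 CPM in Mg-ALN, 5651 to 13791 CPM in ALN and 3597 to 11660 CPM in Gel. Of these 10 markers, 8 were lower in Mg-ALN than in ALN and 10 were lower than in Gel. Some were low in single libraries or groups, as Bglap with 3.45 CPM in Mg-ALN library 2 and Sost with 0.119 to 0.762 CPM in Mg-ALN. The part of these cells in the members' values was not tested.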

How the data were processed

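Polyadenylated RNA of rat fracture tissue was captured with poly-T beads and primed with random hexamers, per the labels' protocols, which do not mention strand marking. The authors deposited whole-number read counts per gene and FPKM. Per the submitters' processing notes, which give no roles, the tools included featureCounts 1.5.0-p3 and HISAT2 2.0.5, with edgeR 3.22.5, fastp, DESeq2 1.20.0 and StringTie 1.3.3b beside them, and the genome build is not given in the sources used here. Each deposited FPKM value equalled the count over gene length times 1 constant per library, with relative deviations of at most 3.46e-09. FPKM served only to compare genes.

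Counts were filtered by filterByExpr, scaled by TMM and fitted over all 9 libraries with edgeR 4.0.16 in R 4.3.3 (limma 3.58.1 and DESeq2 1.42.0 as alternatives), 1 coefficient per group, adjusted p under 0.05. Log2 CPM used a prior count of 0.5. Scripts were tested on simulated data. Pairs of libraries differed by a chi-square of at least 75.8 per degree of freedom, so none was counted as a duplicate. The p-values of the fits set differences between groups against the spread of libraries within groups. Since separate animals are not stated, that spread may be technical, and the p-values speak only for these samples. Same-numbered deviations correlated at 0.341, 0.419 and 0.226 between ALN and Gel, all above 0.1. These groups were therefore also read within numbers, and fitted with the number as a block as an alternative. The main tests of ALN against Gel used no pairing. Same-numbered correlations lay between −0.127 and 0.130 for Mg-ALN with ALN and between −0.199 and −0.0452 for Mg-ALN with Gel.

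The members and lists were chosen with earlier results of these data known. The lists held 173 entries, of which 167 matched by symbol. Named genes were the 10 members, up to 4 genes per list with the smallest p and a mean of 2 CPM or more where higher, and the 6 genes most like the members' profile.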

Additional observations from a re-analysis of the deposited data

How the results depend on the processing

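In Mg-ALN against ALN the 10 log2 fold changes stayed positive in all 18 alternatives. By edgeR 0 members passed in any of them. DESeq2 called 133 genes in ALN against Gel, 184 in Mg-ALN against ALN, 51 in Mg-ALN against Gel and 247 jointly, against 0 by edgeR, and 1 member (Ier2) in the second and in the joint test. Limma-voom with quality weights called 263, 2, 0 and 28 genes in that order. With 1 library left out, edgeR called 0 to 1 genes in ALN against Gel and jointly. Leaving out libraries with DESeq2, and the block in ALN and Gel alone, were chosen after seeing the data. DESeq2 then called 52 to 455 genes and 0 to 6 members in Mg-ALN against ALN, and 118 to 605 genes and 0 to 3 members jointly.

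Signs turned for 7 members in Mg-ALN against Gel and for Atf3 in ALN against Gel. In Mg-ALN against Gel, limma-voom gave 0.29 for Fosb, −0.047 for Junb, −0.26 for Nr4a1 and −0.039 for Dusp1. Adjusted for the mitochondrial share, the values were 0.61 for Fosb and 0.39 for Egr2, the median was 0.83, and Atf3 had 0.43 in ALN against Gel. With 1 library left out, Mg-ALN against Gel ranged from −0.59 to 1.05 for Fos, −0.67 to 0.37 for Fosb, −0.16 to 0.76 for Junb, −0.045 to 0.57 for Egr1, −0.53 to 0.061 for Egr2, −0.20 to 1.57 for Nr4a1 and −0.13 to 0.60 for Dusp1, and Atf3 in ALN against Gel from −1.40 to 0.17. The cause was not tested.

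The replicate block over 9 libraries gave 0.49 for Fosb in Mg-ALN against Gel and changed no call. Library totals without TMM moved the median of all genes to −0.18 in ALN against Gel and −0.23 in Mg-ALN against Gel, with 0 of the members' signs turned. The lowest count of a member was 3, for Fosb in ALN library 1, and Egr2 had 50 to 231 counts per library.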
